A study of Mus musculus with 8 samples.

Results

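The genes of respiratory complex I were followed between RNA recovered with the decapping co-activator DCP1A and input RNA of the mouse ovary. They were taken as every row of the deposited table whose symbol begins with Nduf, which gave 42 of 23107 genes. Of these, 36 encode nuclear-encoded subunits, 4 are assembly factors named Ndufaf, and 2 are Ndufa4 and its paralog Ndufa4l2. The tissue was ovarian cortex taken on postnatal day 8, with no genotype, strain or treatment named in the labels. RNA from 4 immunoprecipitations with a DCP1A antibody (RIP 1 to 4) was set against 4 input libraries (input 1 to 4), to ask which RNAs DCP1A contacts in primary oocytes. The libraries used were RIP and input only, and immunoprecipitates of a control antibody were not analysed here. RNA bound by DCP1A and RNA recovered without specific binding therefore cannot be told apart. The labels do not say whether the libraries of a group came from separate animals, so the p-values cover a spread that may be technical.

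Complex I is the NADH dehydrogenase of the mitochondrial inner membrane and the entry point of electrons into the respiratory chain. Its matrix arm oxidises NADH in the N module and passes electrons to ubiquinone in the Q module, and its membrane arm pumps protons. A conserved core does the catalysis, part of it encoded in mitochondrial DNA and not analysed here, while accessory subunits surround and stabilise the core and assembly factors help to build the complex without staying in it. DCP1A belongs to the decapping complex of cytoplasmic P-bodies, and growing oocytes rely on mitochondrial respiration for much of their ATP.

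Libraries held 13098154 to 25757620 estimated counts, with 16310 to 24890 on the 29 accessory subunit genes in RIP and 18180 to 36820 in input. Inputs 1 and 2 were shallower, at 13098154 and 13142790 counts, than inputs 3 and 4, at 25757620 and 25030604. RIP libraries held 16325384 to 21269892. All 42 genes passed the filter on low counts, and 41 had at least 10 counts in every library. Levels are given as CPM (counts scaled to a fixed library total) after trimmed mean of M-values (TMM) scaling. Of the 12 oocyte markers, 11 had counts in every library, and their summed level was 1650 to 2030 CPM in RIP and 1540 to 2230 CPM in input. Granulosa markers summed to 1360 to 2180 CPM in RIP and 1020 to 2570 CPM in input, and stromal markers to 4360 to 8010 CPM in RIP and 4230 to 6660 CPM in input. Markers of endothelium (59.9 to 96.8 CPM in RIP, 45.2 to 96.8 CPM in input), surface epithelium (60.4 to 156 CPM in RIP, 55.0 to 93.4 CPM in input) and blood and immune cells (108 to 188 CPM in RIP, 75.5 to 317 CPM in input) were also counted. Of the last list, Hba-a1, Hba-a2 and Ptprc averaged 0.0554, 0.0303 and 0.484 CPM in RIP and 0.0170, 0 and 0.593 CPM in input. The globin row Beta-s was far higher, averaging 82.4 CPM in RIP and 162.9 CPM in input, and it ran from 39.93 to 283.3 CPM among the inputs. Alas2 averaged 28.65 CPM in RIP and 33.32 CPM in input. The summed ranges of RIP and input overlapped for each of these lists. Single markers at an edgeR unadjusted p under 0.05 were Dcn (log2 fold change of RIP over input -0.81) and Nr2f2 (-0.69) of stroma, Kitl (-0.63) of granulosa cells and Csf1r (0.84) of immune cells, and Cd68 (1.77) of immune cells had all RIP libraries above all input libraries. Other members of these lists went the other way. Positive values were held by 3 of 7 stromal and 5 of 9 granulosa markers (medians -0.07 and 0.03). Of the 4 blood and immune markers tested, 2 were positive and 2 negative. The part of the markers in the values of the complex I genes was not tested. In bulk RNA, fewer cells of a type and less RNA per cell cannot be told apart.

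None of the 42 genes passed the test between RIP and input. With edgeR (quasi-likelihood test, Benjamini-Hochberg adjusted over all 14667 genes tested), 0 of 42 passed in either direction and the lowest adjusted p was 0.622 (Ndufa12, Ndufb4 and Ndufb7). The background was low too, since 0.0409% of all genes tested passed as lower in RIP and 0% as higher. With the replicate number as a block, 42 of all genes passed as lower and 13 as higher, against 6 and 0 without it, and 0 of the 42 complex I genes passed. At an unadjusted p under 0.05, 5 complex I genes were lower in RIP and 0 were higher, where 4.28% of all genes were lower and 3.15% higher. The count of 5 was 2 without RIP 3, 3 without RIP 1, 3 without input 2 and 8 without input 4. In these settings 471 of 14894, 393 of 15115, 849 of 15130 and 647 of 14997 of all genes tested were lower at that p, against 628 of 14667 with all libraries. DESeq2 and limma voom also called 0 of the 42. Each fold change is RIP over input as a log2 value, and 34 of the 42 were negative, where 51.7% of all genes were. The number was 39 of 42 from libraries 1 and 2 alone, 29 from libraries 3 and 4 alone, and 24 from RIP 2 to 4 against input 3 and 4. The median over all genes tested was 0.014, -0.027 and -0.009 in these subsets, in that order. With all libraries, the median was -0.33 over the 42 genes and -0.02 over all genes tested.

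**Figure D1:**
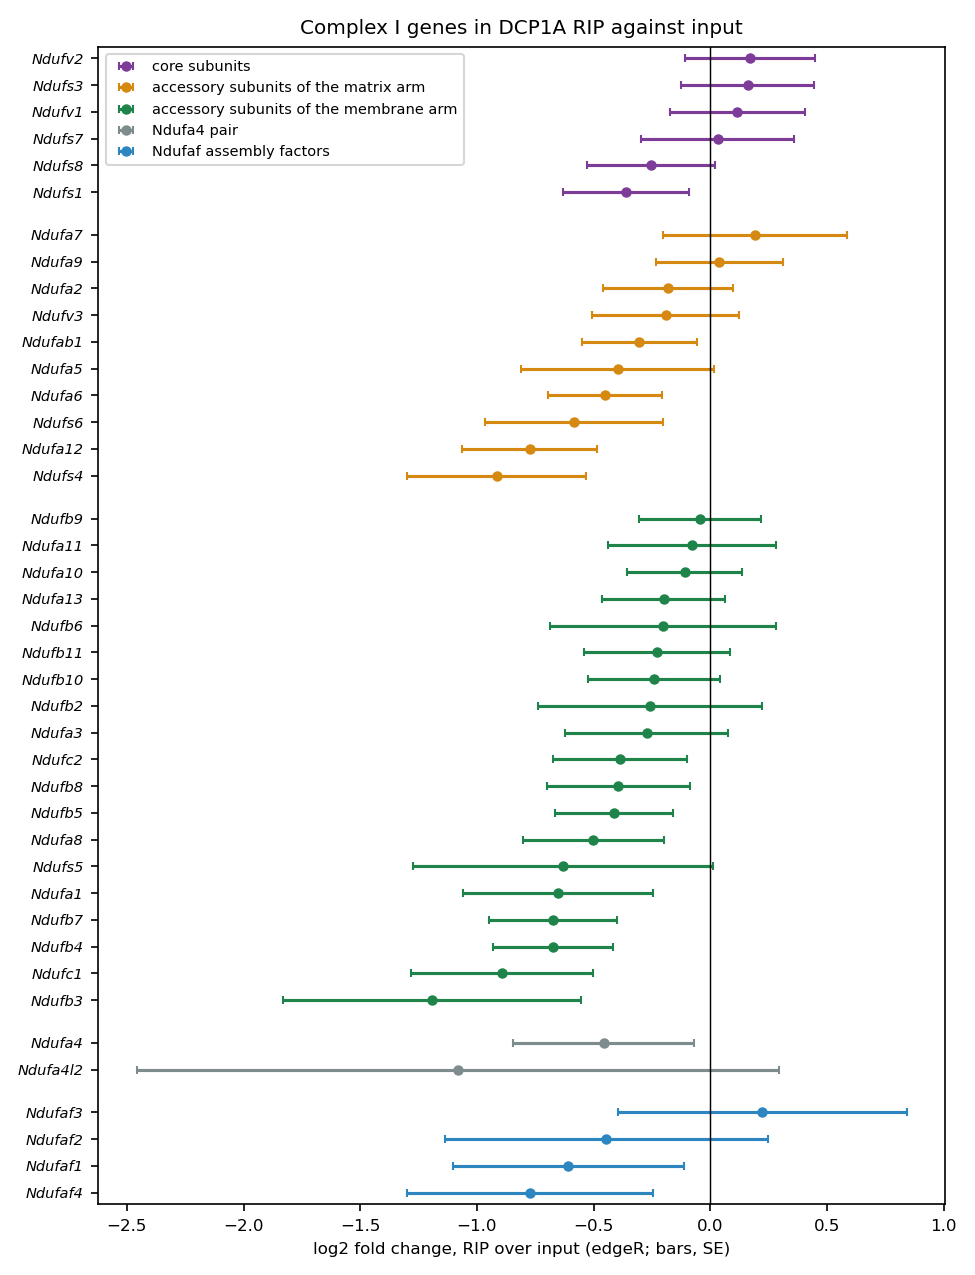
Log2 fold change of RIP over input for 41 complex I genes (points, edgeR estimates; bars, SE; n = 4 libraries a group), grouped by class. Core subunits lie on both sides of 0 between -0.36 and 0.17, 27 of 29 accessory subunits lie below 0, and 0 of the 41 passed the test.

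The subunit classes had different medians and overlapping ranges. Of the 7 core subunits 6 are described, and these had a median log2 fold change of 0.07, with 4 positive and 2 negative values, and the 29 accessory subunits one of -0.39, with 2 positive and 27 negative. Of the accessory subunits, the 10 of the matrix arm had a median of -0.35 and the 19 of the membrane arm one of -0.39, and all 19 genes of the membrane arm were negative. All 36 subunits together gave a median of -0.27. These directions depended on the libraries used. Libraries 1 and 2 alone gave 19 of 19 negative values in the membrane arm and a subunit median of -0.33, and libraries 3 and 4 alone gave 13 of 19 and -0.11. With RIP 2 to 4 against input 3 and 4, 9 of the 19 were negative and the subunit median was -0.04. Of the accessory genes, 15 of 29 lay below the lowest core gene, and the difference between the classes was not tested. Among all genes tested, 25.2% had a fold change below the accessory median.

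The 6 core subunits took 0.0436%, 0.0457%, 0.0448% and 0.0422% of counts in RIP 1 to 4, against 0.0452%, 0.0498%, 0.0391% and 0.0389% in input 1 to 4. These ranges overlapped. Accessory subunits took 0.0999%, 0.117%, 0.108% and 0.109% of counts in RIP 1 to 4, against 0.139%, 0.148%, 0.143% and 0.118% in input 1 to 4. Every RIP library lay below every input library on that scale, but after TMM scaling the groups overlapped, at 970 to 1204 summed CPM in RIP and 1074 to 1650 CPM in input.

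The ratio of counts on the 6 core genes to accessory counts within a library does not depend on scaling between libraries. It was 0.437, 0.390, 0.416 and 0.386 in RIP 1 to 4, against 0.326, 0.337, 0.273 and 0.33 in input 1 to 4. The RIP libraries all lay above the input libraries, with means of 0.407 ± 0.024 in RIP and 0.316 ± 0.029 in input (SD, n = 4 each). Ndufv1 supplied 41.0 to 47.3% of the counts of the 6 core genes in RIP and 31.7 to 47.5% in input. Without Ndufv1 the ratio was 0.230, 0.221, 0.235 and 0.228 in RIP 1 to 4, against 0.171, 0.184, 0.187 and 0.208 in input 1 to 4, again with no overlap. With every gene weighted equally, the mean log2 CPM of core minus accessory subunits was 1.00 ± 0.06 in RIP and 0.63 ± 0.13 in input, and the values ran from 0.90 to 1.04 in RIP and from 0.52 to 0.82 in input. The ratio was formed after the fold changes had been seen and was given no test. It was 1.10 ± 0.07 in RIP and 0.865 ± 0.153 in input over the matrix arm accessory subunits, and 0.646 ± 0.039 in RIP and 0.502 ± 0.019 in input over those of the membrane arm.

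**Figure D2:**
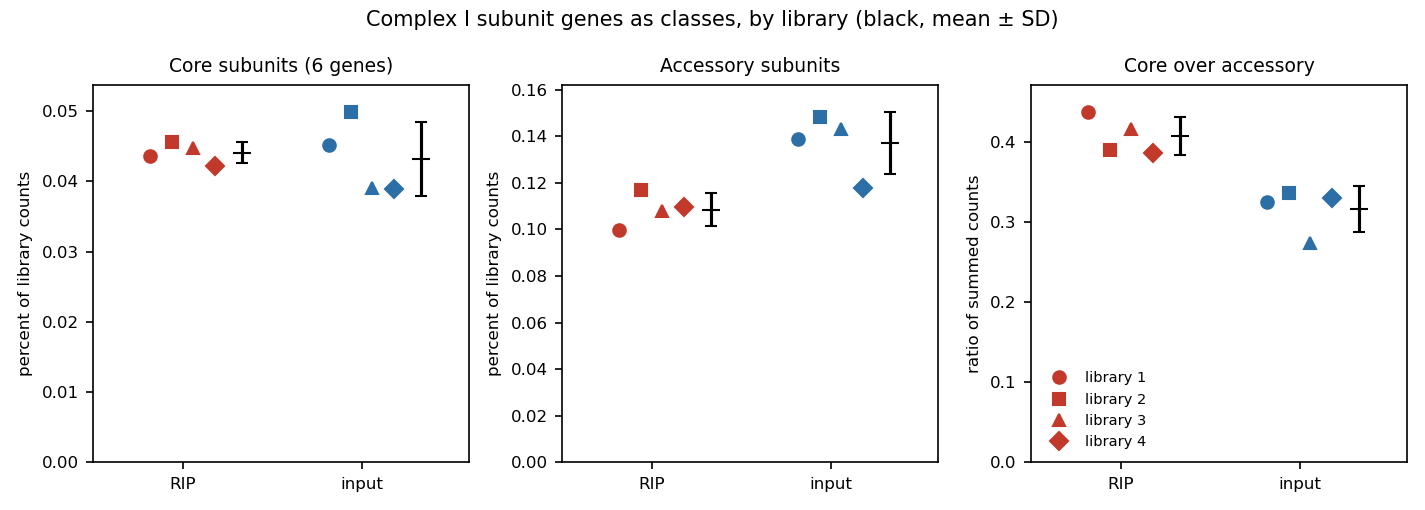
Percent of library counts on 6 core subunits (left) and accessory subunits (middle), and the ratio of their summed counts (right), in each RIP and input library (symbols, library number; black, mean ± SD, n = 4). Core shares overlap, accessory shares are 0.0999 to 0.117% in RIP and 0.118 to 0.148% in input, and the ratio is 0.386 to 0.437 in RIP and 0.273 to 0.337 in input.

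Inputs differed among themselves in the subunit genes. Over the 36 subunits, the median deviation from each gene's mean log2 CPM was 0.03, 0.03, -0.17 and -0.23 in RIP 1 to 4, against 0.30, 0.47, -0.04 and -0.25 in input 1 to 4. On this TMM scale, libraries 1 and 2 lay above libraries 3 and 4 in both groups, and input 4 lay below every RIP library. The order depended on scaling. As a share of library counts, the 36 subunits took 0.169%, 0.182%, 0.175% and 0.171% in RIP 1 to 4. They took 0.202%, 0.217%, 0.194% and 0.174% in input 1 to 4. By that share RIP 1 was the lowest library, and input 4 lay above RIP 1 and RIP 4. Input 2 held the highest level of 16 of the 36 subunits (44.4%, against 15.3% of all genes tested) and input 1 of 10 (27.8%, against 11.5%), while input 4 held the highest level of 0 (12.2% of all genes).

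Set against the input of the same number, 25 of 36 subunits were lower in RIP 1, 33 in RIP 2, 22 in RIP 3 and 19 in RIP 4. Whether the numbers pair the libraries is not known. The share of all genes tested was between 47.0 and 49.3% at each number. The median log2 difference of the subunits was -0.28, -0.46, -0.25 and -0.10 at numbers 1 to 4. Lower at all 4 numbers were 11 of the 36 subunits, where 9.9% of all genes were, and higher at all 4 were 0, where 10.8% of all genes were. The 11 were the core genes Ndufs1 and Ndufs8 and the accessory genes Ndufa2, Ndufa6, Ndufa12, Ndufb4, Ndufb5, Ndufb7, Ndufc1, Ndufs6 and Ndufv3. Some of their log2 differences were near 0, such as -0.001 for Ndufa2 at number 1 and -0.045 for Ndufs8 at number 2.

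Among the core genes of the N module, Ndufv1 encodes the subunit that binds NADH and its flavin. Ndufv1 was at 248, 201, 185 and 154 CPM in RIP 1 to 4, against 236, 251, 109 and 131 CPM in input 1 to 4 (log2 0.12 ± 0.29, SE). Its input libraries spanned a wider range than its RIP libraries. Ndufv2, an iron-sulfur partner of Ndufv1, was at 61.8, 49.1, 39.0 and 49.6 CPM in RIP, against 31.8, 51.8, 55.4 and 38.3 CPM in input (0.17 ± 0.28). The groups overlapped for both genes. Ndufs1, the large subunit that carries iron-sulfur clusters onward, was at 32.6, 38.5, 48.0 and 41.6 CPM in RIP, against 43.1, 41.8, 66.6 and 55.1 CPM in input (-0.36 ± 0.27). This was the lowest fold change of the 6 core genes.

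In the Q module, Ndufs7 lies at the ubiquinone site. Ndufs7 was at 78.5, 73.6, 66.3 and 58.4 CPM in RIP, against 75.0, 112, 31.8 and 52.7 CPM in input (log2 0.03 ± 0.33, SE). Its input libraries lay both above and below all of its RIP libraries. Ndufs3, an early scaffold of the module, was at 76.4, 54.3, 48.3 and 37.2 CPM in RIP, against 60.9, 51.3, 40.6 and 40.7 CPM in input (0.16 ± 0.29). Ndufs8, which carries iron-sulfur clusters, was at 28.0, 46.0, 37.7 and 33.9 CPM in RIP, against 50.1, 47.5, 39.5 and 36.7 CPM in input (-0.25 ± 0.28). None of the 6 reached an unadjusted p under 0.05, with adjusted p from 0.787 to 0.987 by edgeR.

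**Figure D3:**
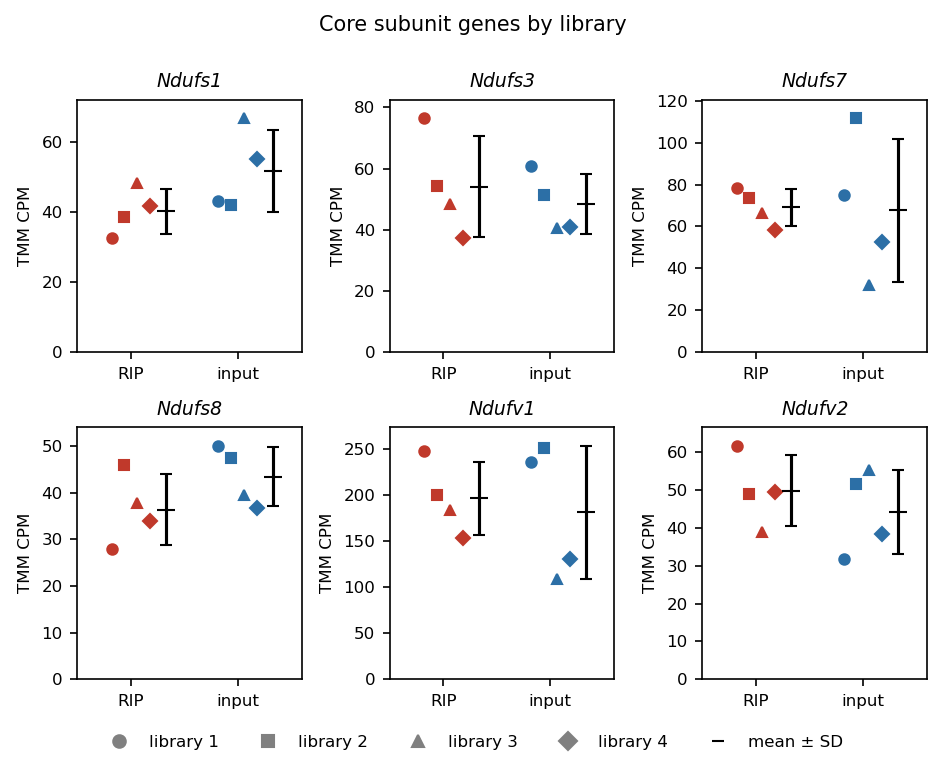
TMM-normalized CPM of 6 core subunit genes in each RIP and input library (symbols, library number; black, mean ± SD, n = 4). The groups overlap for each gene, and input 3 is the lowest library for Ndufs7 and Ndufv1 and the highest for Ndufs1.

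Among accessory subunits, 4 had all RIP libraries below all input libraries, where 2.52% of all genes did, and 0 had them above, where 2.77% did. Ndufa12 is a matrix arm subunit added late in assembly. It was at 23.0, 32.0, 28.6 and 28.1 CPM in RIP 1 to 4, against 56.2, 44.8, 57.8 and 32.4 CPM in input 1 to 4 (log2 -0.77 ± 0.29, SE, edgeR unadjusted p = 0.0167). RIP 2 and input 4 nearly touched. Ndufb4, of the outer membrane arm, was at 34.3, 42.7, 35.6 and 57.0 CPM in RIP, against 65.6, 71.5, 66.4 and 67.4 CPM in input (-0.67 ± 0.26, 0.0187). Its input libraries lay within a narrow band, and RIP 4 was closest to them. Ndufb7, on the intermembrane face, was at 45.0, 35.3, 39.9 and 25.7 CPM in RIP, against 56.0, 73.0, 50.1 and 53.8 CPM in input (-0.67 ± 0.27, 0.0258). Ndufb5 was at 43.0, 35.1, 33.7 and 34.3 CPM in RIP, against 51.8, 46.9, 46.2 and 49.3 CPM in input (-0.41 ± 0.25, 0.125).

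The sequence upstream of these 4 genes is shown because they were the members whose libraries separated. Each line gives the 250 bases before the start in RefSeq's promoter windows on GRCm38.p6, 5′ to 3′ on the gene's strand, at chr10:94198785-94199034 (plus strand) for Ndufa12, chr16:37654369-37654618 (minus) for Ndufb4, chr3:32736813-32737062 (plus) for Ndufb5 and chr8:83566508-83566757 (plus) for Ndufb7. The last bases of the Ndufb5 window lie inside the gene's annotated span. Capitals mark matches on either strand to the motifs searched.
Ndufa12: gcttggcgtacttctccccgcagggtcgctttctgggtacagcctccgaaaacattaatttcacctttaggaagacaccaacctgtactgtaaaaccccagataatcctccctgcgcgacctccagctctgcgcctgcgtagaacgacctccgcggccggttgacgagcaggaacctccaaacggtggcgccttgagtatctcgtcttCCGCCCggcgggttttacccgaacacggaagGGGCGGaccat
Ndufb4: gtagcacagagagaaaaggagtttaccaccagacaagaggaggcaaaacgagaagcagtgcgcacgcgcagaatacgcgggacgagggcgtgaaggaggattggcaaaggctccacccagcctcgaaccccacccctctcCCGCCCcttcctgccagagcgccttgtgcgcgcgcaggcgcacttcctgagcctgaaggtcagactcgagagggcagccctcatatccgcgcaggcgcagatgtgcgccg
Ndufb5: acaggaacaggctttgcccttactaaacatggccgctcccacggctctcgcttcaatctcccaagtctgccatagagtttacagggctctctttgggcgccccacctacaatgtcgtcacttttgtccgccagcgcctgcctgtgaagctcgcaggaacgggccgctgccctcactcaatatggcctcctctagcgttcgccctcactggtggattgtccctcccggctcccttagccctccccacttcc
Ndufb7: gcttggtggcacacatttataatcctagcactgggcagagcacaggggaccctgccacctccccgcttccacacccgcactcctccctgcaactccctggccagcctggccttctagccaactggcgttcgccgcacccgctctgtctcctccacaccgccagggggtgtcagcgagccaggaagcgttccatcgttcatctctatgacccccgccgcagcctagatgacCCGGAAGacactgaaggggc
The motifs were GGGCGG (SP1), CCGGAAG (GABPA), CGCATGCG (the centre of the NRF1 motif), AAGATGGCG (YY1) and TGACGTCA (CREB), none of which overlapped another in these 4 windows. Ndufa12 held GGGCGG on each strand, Ndufb4 held it on the opposite strand, Ndufb7 held CCGGAAG, and Ndufb5 held 0 matches, so the 4 shared no motif. RefSeq windows were matched for 37 of the 42 genes. GGGCGG was found for 18 of the 37 (48.6%) and for 35.4% of all 27025 genes with a window. CCGGAAG was found for 4 (10.8%, against 7.83%), CGCATGCG for 3 (8.11%, against 1.75%), TGACGTCA for 3 (8.11%, against 1.77%) and AAGATGGCG for 0 (0.71% of all genes). A match is a run of letters and not a site of binding.

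Other accessory genes had similar fold changes with overlapping groups. Ndufs4, a late-added N module subunit whose loss in mice models Leigh syndrome, was at 17.3, 34.1, 24.6 and 32.9 CPM in RIP 1 to 4, against 28.6, 55.7, 91.0 and 30.1 CPM in input 1 to 4. Input 3 was the highest, and the log2 fold change of -0.92 ± 0.38 (edgeR unadjusted p = 0.0302) was -0.48 without it. Ndufc1, a small membrane subunit, was at 11.2, 16.3, 10.4 and 11.3 CPM in RIP, against 12.8, 36.2, 22.1 and 20.2 CPM in input. Input 2 was the highest, and the fold change of -0.89 ± 0.39 (edgeR unadjusted p = 0.0365) was -0.58 without it. Ndufb3, in the outer membrane arm, was at 2.66, 1.90, 6.60 and 7.93 CPM in RIP, against 12.8, 13.6, 14.8 and 2.66 CPM in input (-1.19 ± 0.64, 0.0806). Input 4 stood below the other inputs. Libraries 1 and 2 alone gave -2.53, and libraries 3 and 4 alone gave -0.27.

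Ndufa6, which binds the acyl carrier protein Ndufab1 to the matrix arm, was at 72.6, 81.1, 63.7 and 52.9 CPM in RIP, against 89.9, 114, 90.4 and 75.4 CPM in input (-0.45 ± 0.24, 0.0848). Only RIP 2 reached into the range of the inputs. Ndufa8, on the intermembrane face, was at 19.2, 27.9, 31.0 and 24.2 CPM in RIP, against 36.1, 48.5, 30.4 and 30.0 CPM in input (-0.50 ± 0.30, 0.118). Libraries 1 and 2 alone gave -0.85, and libraries 3 and 4 alone gave -0.13. The remaining 20 accessory genes had fold changes from -0.65 (Ndufa1) to 0.19 (Ndufa7), with unadjusted p of 0.130 or more. Ndufa7 and Ndufa9 (0.04 ± 0.27) were the only accessory genes with a positive value. Ndufs5 had counts that were not whole in 4 libraries, so its value of -0.63 ± 0.64 is uncertain.

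In the matrix arm, Ndufab1, the mitochondrial acyl carrier protein found in both arms, averaged 52.7 ± 7.42 CPM in RIP and 65.1 ± 9.13 CPM in input (SD, n = 4 each; log2 -0.30 ± 0.25, SE). Ndufs6, a zinc-binding subunit of the N module, averaged 14.7 ± 5.94 CPM in RIP and 22.0 ± 2.54 CPM in input (-0.58 ± 0.38). Ndufa9, which holds a nucleotide near the Q module, averaged 71.3 ± 11.2 CPM in RIP and 69.4 ± 22.4 CPM in input (0.04 ± 0.27). The groups overlapped for each of the 3. Ndufa7 averaged 35.7 ± 10.6 CPM in RIP and 31.3 ± 17.1 CPM in input (0.19 ± 0.39), and Ndufa5 29.8 ± 1.86 CPM in RIP and 39.2 ± 25.1 CPM in input (-0.40 ± 0.41). For Ndufa5 the RIP libraries were close together and the inputs far apart.

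In the membrane arm, Ndufa10 averaged 62.9 ± 11.1 CPM in RIP and 67.8 ± 9.57 CPM in input (log2 -0.11 ± 0.25, SE). Ndufb8 averaged 56.8 ± 14.6 CPM in RIP and 74.7 ± 28.6 CPM in input (-0.39 ± 0.31). Ndufc2, which pairs with Ndufc1, averaged 33.9 ± 9.67 CPM in RIP and 44.3 ± 4.20 CPM in input (-0.39 ± 0.29). Every one of these differences was smaller than the larger of its 2 group SDs, except for Ndufc2. Ndufb9 averaged 69.6 ± 11.3 CPM in RIP and 71.7 ± 20.7 CPM in input and had the fold change nearest 0 in this arm (-0.04 ± 0.26).

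**Figure D4:**
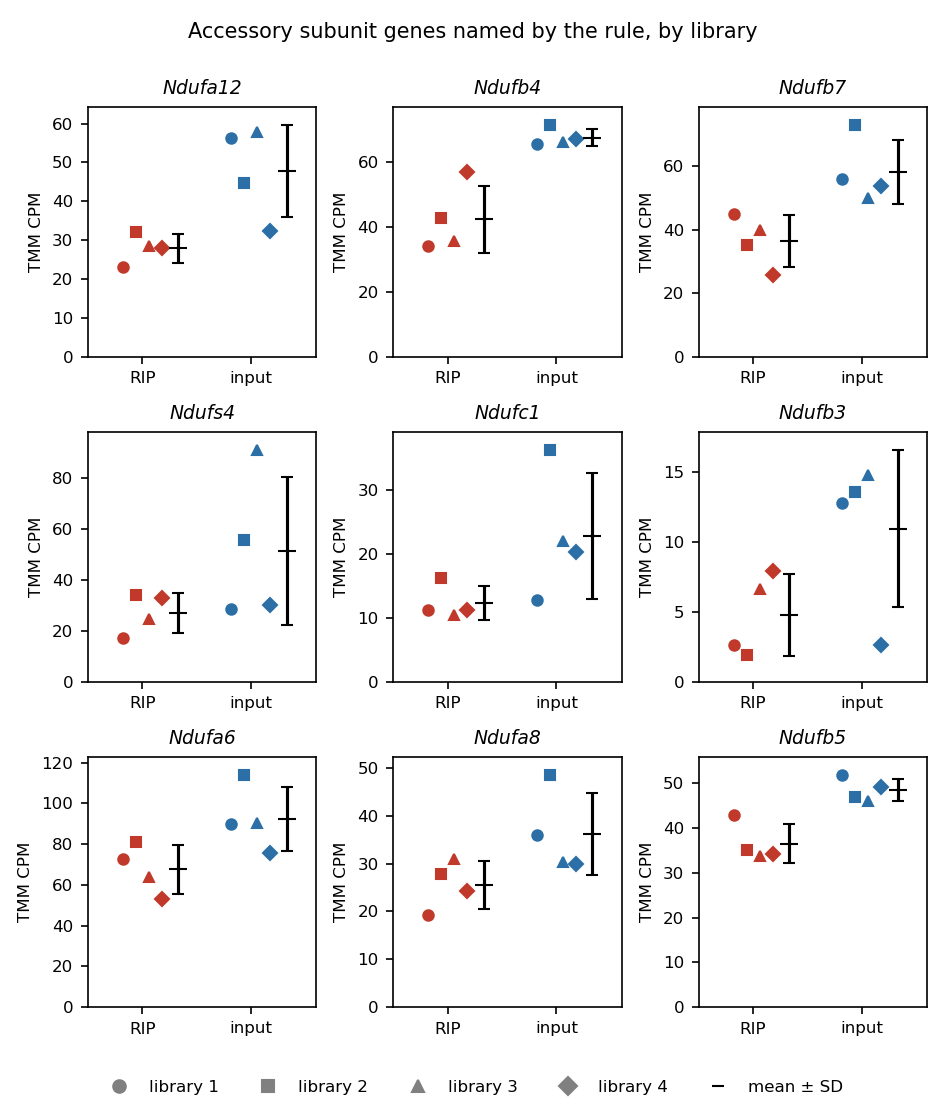
TMM-normalized CPM of 9 accessory subunit genes, the 8 with the lowest edgeR p and Ndufb5, in each RIP and input library (symbols, library number; black, mean ± SD, n = 4). RIP and input do not overlap for Ndufa12, Ndufb4, Ndufb7 and Ndufb5, and input 4 is the lowest input for Ndufb3 at 2.66 CPM.

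The assembly factors gave scattered values at low levels, with 302 to 878 counts in RIP and 275 to 2416 in input over the 4 genes. Ndufaf4, which with Ndufaf3 helps to build the Q module, was at 8.56, 12.9, 18.4 and 14.3 CPM in RIP 1 to 4, against 19.1, 7.38, 54.0 and 11.9 CPM in input 1 to 4 (log2 -0.77 ± 0.53, SE). Input 3 stood above all other libraries, and without it the fold change was 0.09. Ndufaf3 was at 6.79, 12.5, 10.4 and 8.36 CPM in RIP, against 21.4, 2.97, 4.42 and 3.90 CPM in input (0.22 ± 0.62). Here input 1 stood above the rest, and without it the fold change was 1.33. Ndufaf1, part of the machinery that builds the membrane arm, was at 4.87, 5.66, 9.08 and 6.70 CPM in RIP, against 7.98, 8.40, 16.7 and 6.99 CPM in input (-0.61 ± 0.49). It was lower in RIP at each number. Ndufaf2, a relative of Ndufa12 that holds its place during assembly, was at 2.07, 2.81, 3.32 and 6.98 CPM in RIP, against 5.12, 4.58, 7.05 and 3.93 CPM in input (-0.44 ± 0.69). The median of the 4 genes was -0.53, and it was -0.11 without input 3. Their edgeR adjusted p ran from 0.756 to 0.949.

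The 4 further Ndufaf genes stood in the table under older symbols and lay outside the Nduf pattern. They were Ndufaf5 (2310003L22Rik, log2 0.04 ± 0.60), Ndufaf6 (2310030N02Rik, -0.23 ± 0.56), Ndufaf7 (2410091C18Rik, -0.08 ± 0.43) and Ndufaf8 (1810043H04Rik, -0.07 ± 0.39). Of 12 complex I assembly factors with other names, 0 passed the test, 1 was lower at an unadjusted p under 0.05 and the median was 0.04. Lyrm2, which acts on the N module, was at 0.96, 2.19, 5.85 and 6.27 CPM in RIP 1 to 4, against 11.9, 4.41, 15.9 and 11.9 CPM in input 1 to 4 (-1.53 ± 0.65, unadjusted p = 0.0324). The groups overlapped at input 2.

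**Figure D5:**
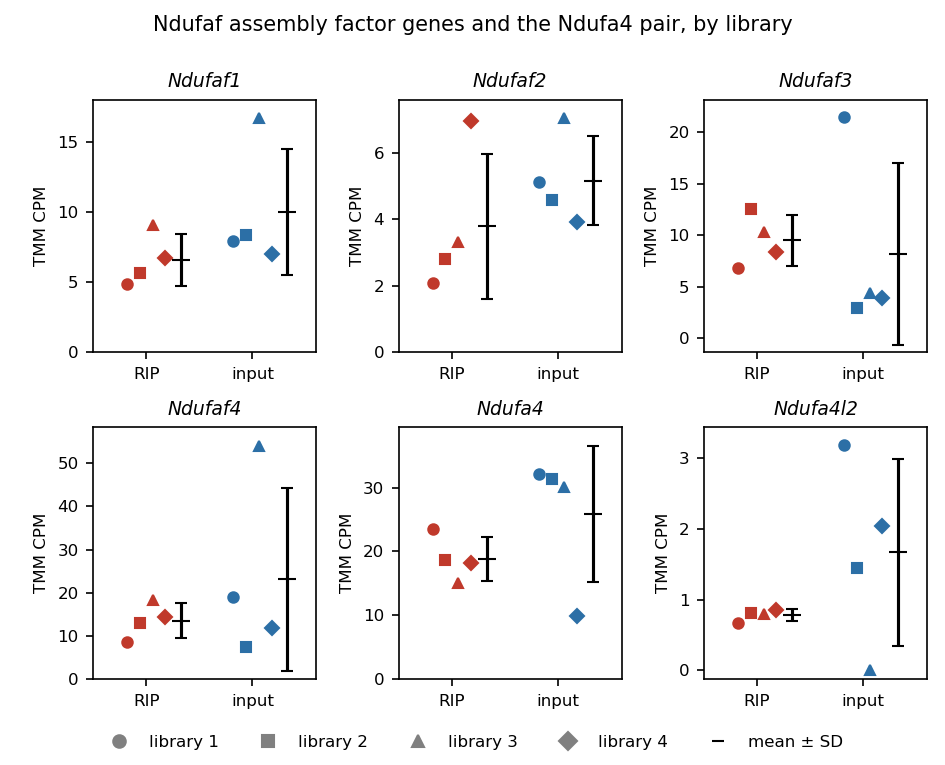
TMM-normalized CPM of the 4 Ndufaf assembly factor genes, Ndufa4 and Ndufa4l2 in each RIP and input library (symbols, library number; black, mean ± SD, n = 4). Input 3 is the highest for Ndufaf1 (16.7) and Ndufaf4 (54.0), input 1 is the highest for Ndufaf3 (21.4), and input 4 is the lowest for Ndufa4 (9.86).

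Ndufa4 was named for complex I and is now placed with cytochrome c oxidase. It was at 23.5, 18.6, 15.03 and 18.2 CPM in RIP 1 to 4, against 32.2, 31.3, 30.1 and 9.86 CPM in input 1 to 4 (log2 -0.46 ± 0.39, SE). Input 4 lay below all RIP libraries, and the other inputs lay above them. Ndufa4l2, a hypoxia-induced paralog, was at 0.66, 0.81, 0.80 and 0.85 CPM in RIP, against 3.19, 1.44, 0 and 2.04 CPM in input (-1.08 ± 1.38). The 0 counts in input 3 allow up to 0.102 CPM, from counting error only.

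Regulators of respiratory genes and complex II subunits were measured beside complex I. Gabpa, an ETS factor that drives many nuclear respiratory genes, was at 25.7, 38.8, 51.8 and 52.2 CPM in RIP 1 to 4, against 70.9, 100.2, 85.7 and 59.7 CPM in input 1 to 4. All RIP libraries lay below all input libraries (log2 -0.91 ± 0.29, edgeR unadjusted p = 0.00657, adjusted p = 0.614). The mitochondrial DNA transcription factors Tfam (-0.94 ± 0.35, unadjusted p = 0.0174) and Tfb2m (-0.88 ± 0.37, 0.0287) had values on the same side, with overlapping groups. Of the 9 regulators 0 passed the test and the median was 0.05. These 3 were the ones past an edgeR unadjusted p of 0.05, all lower, where 4.28% of all genes were lower. The values went both ways, with 4 of the 9 negative and 5 positive, from -0.94 to 1.06. The 4 subunits of complex II, the succinate dehydrogenase, had a median of -0.04, from -0.30 (Sdhc) to 0.25 (Sdhb), with 0 at an unadjusted p under 0.05.

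By the RefSeq table the 42 genes lay on 16 chromosomes, and 13 overlapped another annotated gene. Ndufa1 and Ndufb11 lay on the X chromosome (mm10, 37187588 to 37191238 and 20615326 to 20617619), with log2 fold changes of -0.65 ± 0.41 and -0.23 ± 0.31. Among the 6 core genes, Ndufs1, Ndufs7 and Ndufv2 overlapped other genes. The sources used here do not give whether counting used strand, and reads of overlapping genes then cannot be told apart. The genes whose libraries separated, Ndufa12 (chromosome 10, 94199035 to 94221440), Ndufb4 (chromosome 16, 37647602 to 37654368), Ndufb5 (chromosome 3, 32737057 to 32751559) and Ndufb7 (chromosome 8, 83566758 to 83571623), overlapped none in that table.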

How the data were processed

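The deposited table held estimated counts (expected counts) of 23107 genes, made by the authors from reads aligned to the mm10 build named in the submitters' processing notes, with aligner, counter and annotation not given in the sources used here. Libraries were made with a stranded total RNA kit after a RIP kit, per the labels' protocols. Counts were rounded to whole numbers.

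RIP was tested against input over the whole table in R 4.3.3 with edgeR 4.0.16 (TMM, filterByExpr minimum count 10 and total 15, robust quasi-likelihood fit, Benjamini-Hochberg threshold 0.05). SE is the size of the log2 fold change over the square root of F. The median SE was 0.309 for the 42 genes and 0.396 for all. The script was run on simulated data with changes placed in genes at or above the median level. It recovered 13 of 50 genes changed 2-fold and 48 of 50 changed 4-fold, with 13 false calls among 14249 genes. Changes near 2-fold were thus mostly missed. The simulation held 50 changed genes at each of 2-, 4-, 8- and 16-fold, where 6 genes passed as lower and 0 as higher in these data. More changed genes ease the adjusted threshold, so these recoveries may be too high for these data. Low-level genes such as Ndufaf2 (SE 0.69) and Ndufa4l2 (SE 1.38) had larger errors than the median. A gene that did not pass may still differ by 2-fold or more. Same-numbered RIP and input libraries correlated in their deviations from group means (r = 0.213, 0.116, 0.206 and 0.137). RIP 4 with input 3 (0.348, above every same-number value), RIP 1 with input 2 (0.193) and RIP 3 with input 4 (0.146) correlated as well. These values cannot settle whether the numbers pair the libraries. The main test therefore used the group only, and the replicate block was an alternative. List symbols were matched by symbol or RefSeq synonym, and GRCm38.p6 is the patch release of mm10. The planned split by protein length was not run, as proteins were not used here.

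Members and lists were chosen with earlier results of these data known. Counts over all 42 genes include 1 core subunit whose values are not reported here. Values by library were given for the other core subunits, Ndufaf genes, the Ndufa4 pair, the 8 accessory genes with the lowest p and members whose groups did not overlap. For other lists up to 3 genes with the lowest p could be named. The alternatives tried were other scalings, DESeq2 1.42.0, limma 3.58.1 voom with sample weights, other filters, the replicate block, leaving out each library and subsets of libraries by number. The promoter motifs were chosen after the fold changes were known, and the NRF1 letters were shortened to their centre after a longer form had been counted.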

Additional observations from a re-analysis of the deposited data

Results flagged for a closer look

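Among 84 sets of 4 libraries (42 genes in each group), 7 held a library whose gap to its nearest neighbour was too large for Dixon's 95% criterion, where chance gives about 1 in 20. RIP 2 was high for Ndufa1 at 19.9 CPM, with 14.3 CPM next, and for Ndufc1 at 16.3 CPM, with 11.3 CPM next. RIP 1 was high for Ndufb5 at 43.0 CPM, with 35.1 CPM next. Input 4 was low for Ndufa4 at 9.86 CPM, with 30.1 CPM next, and for Ndufb3 at 2.66 CPM, with 12.8 CPM next. Input 3 was high for Ndufaf1 at 16.7 CPM, with 8.40 CPM next. Input 1 was high for Ndufaf3 at 21.4 CPM, with 4.42 CPM next.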

How the results depend on the processing

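None of the 42 genes passed under any of the 21 alternatives, and the lowest adjusted p was 0.17 (Ndufa7, higher in RIP, for RIP 2 to 4 against input 3 and 4). The replicate block, which pairs libraries by number, gave 0 calls and a subunit median of -0.23, with 5 genes lower and 0 higher at an unadjusted p under 0.05, and so changed no call among them. Without 1 library the subunit median ran from -0.38 to -0.20, that of the Ndufaf genes from -0.70 to -0.11 and the number of genes called from 0 to 0. The number lower at an unadjusted p under 0.05 ran from 2 to 8, and the number higher ran from 0 to 1, reaching 1 without input 1 (Ndufaf3, log2 1.33). The subunit median was -0.33 within libraries 1 and 2, -0.11 within libraries 3 and 4 and -0.04 for RIP 2 to 4 against input 3 and 4, against -0.265 with all libraries. Negative values were held by 33, 24 and 19 of the 36 subunits in these subsets, against 29 with all libraries. The SD of the subunit level between single libraries of a group was 0.246. That is close to the size of the reported median, so shifts within it do not show that the direction held. Over all genes, where edgeR called 6 lower and 0 higher, DESeq2 called 43 lower and 13 higher, the block of numbers 1 and 2 against 3 and 4 gave 43 and 12, libraries 1 and 2 alone 24 and 3, and RIP 2 to 4 against input 3 and 4 gave 13 and 3. Without 1 library 4 to 16 were lower, with 16 without RIP 1 and 15 without input 3.

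Of 881 values of single genes under the alternatives, 828 kept their direction and 53, of 22 genes, turned it, none of them past the threshold. With limma voom with sample weights these were Ndufa11 (0.18), Ndufa4l2 (0.26), Ndufa5 (0.004) and Ndufb6 (0.038). With the replicate block they were Ndufa11 (0.047) and Ndufb6 (0.032). Within libraries 1 and 2 they were Ndufa7 (-0.037), Ndufa9 (-0.15), Ndufaf3 (-0.33), Ndufs7 (-0.30) and Ndufv1 (-0.12). Within libraries 3 and 4 they were Ndufa11 (0.50), Ndufa3 (0.33), Ndufb11 (0.051), Ndufb8 (0.054), Ndufb9 (0.050), Ndufs5 (0.40) and Ndufv2 (-0.083). With numbers 1 and 2 against 3 and 4 as a block the gene was Ndufa11 (0.056). For RIP 2 to 4 against input 3 and 4 they were Ndufa1 (0.15), Ndufa11 (0.63), Ndufa13 (0.006), Ndufa3 (0.31), Ndufb10 (0.12), Ndufb11 (0.24), Ndufb2 (0.30), Ndufb6 (0.015), Ndufb8 (0.28), Ndufb9 (0.15), Ndufs8 (0.048) and Ndufv2 (-0.024). Without 1 library, values on both sides of 0 were reached by Ndufa9 (-0.11 to 0.27), Ndufs3 (-0.051 to 0.31), Ndufs7 (-0.20 to 0.38), Ndufv1 (-0.061 to 0.31), Ndufa11 (-0.30 to 0.17), Ndufb9 (-0.14 to 0.17), Ndufb11 (-0.40 to 0.031), Ndufb6 (-0.46 to 0.35), Ndufaf3 (-0.048 to 1.33), Ndufb2 (-0.51 to 0.30), Ndufa5 (-0.69 to 0.017), Ndufa7 (-0.031 to 0.52) and Ndufaf4 (-1.06 to 0.093). The cause was not tested. Summed over the libraries, Ndufa4l2, Ndufaf2 and Ndufb3 had the fewest counts of the 42 genes.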
